A study of Triticum aestivum with 10 samples.

Results

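PER1 (LOC543108) and CAT1 are genes of hydrogen peroxide removal, followed here on 10 Affymetrix wheat arrays of whole developing seeds of the winter cultivar Redland. The probe-to-gene table assigned 4 probe sets to them, of 1273 probe sets with a gene symbol and 61179 tested, so these are 2 of 771 genes with a symbol. PER1 has Ta.14503.1.S1_at and Ta.24688.2.S1_a_at, called its first and second probe set below. CAT1 has Ta.442.1.S1_at, its brighter probe set, and TaAffx.80209.1.S1_at, its dimmer one. The genes were chosen by their log2 values on all 10 arrays, with earlier results of these arrays known. Their levels and differences are therefore given as a description, with no test.

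Seeds came from plants left without water and sampled at 48 or 72 hours after fertilization (HAF), and from plants watered throughout and sampled at 24, 48 or 72 HAF, with 2 arrays in each of these 5 groups. The labels place the start of drought at 24 HAF in one passage and at 48 HAF in another. Replicates are labelled as biological, without a plant or pot for any array, so p-values measure only the spread between these samples. All plants were vernalized and grown in 1 growth chamber regime. RNA came from whole seeds, which hold embryo, endosperm, nucellus and pericarp, so more cells of a type and more RNA per cell cannot be told apart.

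Hydrogen peroxide forms in respiring and photosynthesising plant cells and more so under drought. Catalases break it down to water and oxygen without a reductant, mainly in peroxisomes, and CAT1 (also listed as wcat1) encodes such an enzyme. Peroxidases reduce peroxide with an electron donor; the gene table lists LOC543108 as PER1 and as peroxidase, and does not give its enzyme family. In cereals the name PER1 is used for a 1-Cys peroxiredoxin of embryo and aleurone. Bread wheat carries A, B and D copies of most genes, which a probe set of this array may not separate.

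Some arrays did not match their neighbours. Control 24 HAF replicate 2 correlated with the other arrays at 0.811 to 0.898 over all tested probe sets, and its bacterial control BioB read 11.9 on the log2 scale, against 4.01 to 6.97 elsewhere. Drought 72 HAF replicate 2 reached at most 0.959 with any other array, while the highest correlation of each of the remaining arrays was 0.982 to 0.996. Drought 72 HAF replicate 2 was also the array closest to control 24 HAF replicate 2, at 0.898. That was its own lowest correlation, while the lowest of each other array was 0.811 to 0.858. Endosperm storage transcripts, which build up as the grain develops, were set beside the labelled times. The summed linear level of 14 genes for gliadins, a glutenin, avenin-like proteins, thionins and amylase inhibitors was 14792 and 6897 on the drought 72 HAF arrays. It was 15415 on control 72 HAF replicate 2 and 5601 on control 24 HAF replicate 2, and 979 to 1379 on the other 6 arrays. Control 72 HAF replicate 1 (979) thus lacked the storage signal of its replicate, and control 24 HAF replicate 2 carried it at the earliest time. Summed levels ranged from 73.4 to 121 for 6 late embryo markers, from 15973 to 25437 for 4 green tissue markers and from 5344 to 6258 for 3 pollen or anther markers. The late embryo markers averaged 3.34 to 4.19 per gene on the log2 scale, at or under the array medians of 4.08 to 4.24.

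PER1, by its first probe set, was higher in droughted than in watered seeds at 72 HAF and slightly lower at 48 HAF. At 72 HAF it read 5.36 and 6.59 in drought seeds, against 4.31 and 5.07 in control seeds (log2 values, replicates 1 and 2). Both drought arrays lay above both control arrays, by a gap of 0.29 between the nearest ones. The group means were 5.98 ± 0.87 and 4.69 ± 0.54 (SD, n = 2 each), a difference of 1.28 on the log2 scale. That difference exceeded the pooled SD of 0.72, and without drought 72 HAF replicate 2, the array with the highest PER1 level, it was 0.67. Without control 72 HAF replicate 1, the array that lacked the storage signal, it was 0.90.

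At 48 HAF the first PER1 probe set read 4.36 and 4.31 in drought seeds, against 4.61 and 4.47 in control seeds. The arrays again did not overlap, this time with drought lower, and the difference of -0.20 between means of 4.34 ± 0.036 and 4.54 ± 0.098 (SD, n = 2 each) was larger than the pooled SD of 0.074. These values, and the 4.31 of control 72 HAF replicate 1, lie close to the array medians. The files hold no detection call, so whether PER1 was above background there is not known, and no fold is given for it. In drought seeds PER1 was higher at 72 than at 48 HAF by 1.64, with a gap of 1.00 between the nearest arrays. Without drought 72 HAF replicate 2 this difference was 1.03. In watered seeds the difference between 72 and 48 HAF was 0.15 and that between 48 and 24 HAF was -0.38, and the arrays overlapped in both. The drought effect at 72 HAF minus that at 48 HAF was 1.49, or 0.87 without drought 72 HAF replicate 2.

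**Figure D1:**
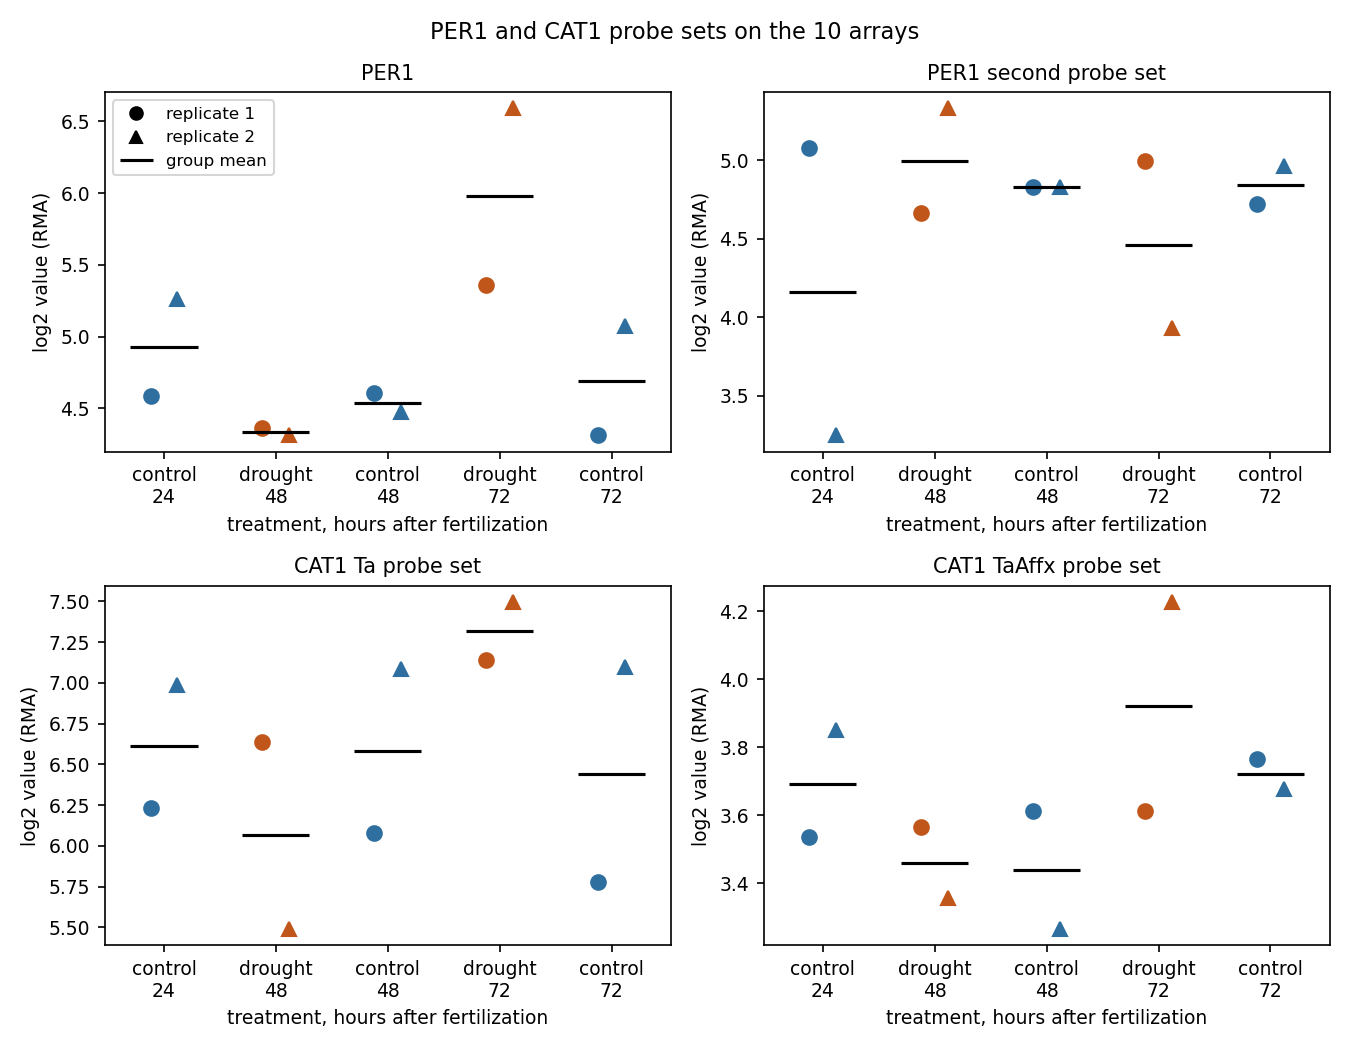
Log2 value of each member probe set on each array (circles replicate 1, triangles replicate 2, lines group means; n = 2 per group), with drought in orange and control in blue. The first PER1 probe set peaks at 6.59 on drought 72 HAF replicate 2, where the second PER1 probe set reads 3.93.

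By group mean, the first PER1 probe set was highest in drought 72 HAF, followed by control 24 HAF (4.93 ± 0.48), control 72 HAF, control 48 HAF and drought 48 HAF. Drought 72 HAF did not overlap with the next group, control 24 HAF (4.59 and 5.26), and drought 48 HAF did not overlap with control 48 HAF. The 3 control groups in between overlapped with one another.

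The second PER1 probe set did not show this pattern. At 72 HAF it read 4.99 and 3.93 in drought seeds, against 4.72 and 4.96 in control seeds. The drought arrays lay on both sides of the controls, and the difference was -0.38, with group means of 4.46 ± 0.75 and 4.84 ± 0.17. At 48 HAF it read 4.66 and 5.33 in drought seeds, against 4.83 and 4.83 in control seeds, a difference of 0.17 with overlapping arrays. At 24 HAF it read 5.08 and 3.25. Its lowest values, 3.25 and 3.93, came from control 24 HAF replicate 2 and drought 72 HAF replicate 2. For these arrays the highest correlation with any other array was lowest (0.898 and 0.959). The first probe set had high values on those same arrays (5.26 and 6.59). Without drought 72 HAF replicate 2, the difference of the second probe set at 72 HAF was 0.15, of the opposite sign. Averaged over both probe sets, PER1 was 0.45 higher in drought than in control seeds at 72 HAF, and its difference at 48 HAF was -0.018. By group mean, this probe set was highest in drought 48 HAF (4.995 ± 0.47), followed by control 72 HAF, control 48 HAF, drought 72 HAF and control 24 HAF (4.16 ± 1.29), and neighbouring groups overlapped throughout.

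CAT1, by its brighter probe set, was also higher in drought than in control seeds at 72 HAF, with a narrow margin. It read 7.14 and 7.50 in drought seeds, against 5.78 and 7.10 in control seeds. The gap between the nearest arrays was 0.041, and control replicate 1 alone lay far below. Group means were 7.32 ± 0.25 and 6.44 ± 0.93 (SD, n = 2 each), a difference of 0.88 (1.84-fold) against a pooled SD of 0.68. Without control 72 HAF replicate 1 the difference was 0.22, and without control 72 HAF replicate 2 it was 1.54.

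At 48 HAF the brighter CAT1 probe set read 6.64 and 5.49 in drought seeds, against 6.08 and 7.08 in control seeds. The arrays overlapped and the difference of -0.52 was smaller than the pooled SD of 0.76. It became 0.057 without drought 48 HAF replicate 2 and -0.016 without control 48 HAF replicate 2. At 24 HAF the values were 6.23 and 6.99. In drought seeds CAT1 was higher at 72 than at 48 HAF by 1.25, with a gap of 0.50 between the nearest arrays, and by 0.68 without drought 48 HAF replicate 2. In watered seeds the differences were -0.14 between 72 and 48 HAF and -0.027 between 48 and 24 HAF, both with overlapping arrays. The drought effect at 72 HAF minus that at 48 HAF was 1.40, with a pooled SD of 0.72, and it was 0.74 without control 72 HAF replicate 1. Group means ran from drought 72 HAF through control 24 HAF (6.61 ± 0.53), control 48 HAF (6.58 ± 0.71) and control 72 HAF to drought 48 HAF (6.07 ± 0.81). Drought 72 HAF lay above both control 24 HAF arrays, and the other neighbours in this order overlapped.

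The dimmer CAT1 probe set stayed within 3.27 to 4.23 on all 10 arrays, mostly under the array medians. At 72 HAF it read 3.61 and 4.23 in drought seeds, against 3.77 and 3.68 in control seeds, with overlapping arrays and a difference of 0.20. Without drought 72 HAF replicate 2 this difference was -0.11, and without drought 72 HAF replicate 1 it was 0.51. At 48 HAF it read 3.57 and 3.36 in drought seeds, against 3.61 and 3.27 in control seeds, a difference of 0.021. At 24 HAF it read 3.54 and 3.85. In drought seeds it was 0.46 higher at 72 than at 48 HAF, or 0.15 without drought 72 HAF replicate 2. Averaged over both CAT1 probe sets, the difference between drought and control at 72 HAF was 0.54, with overlapping arrays. In watered seeds the dimmer probe set was 0.28 higher at 72 than at 48 HAF, with a gap of 0.063, and 0.25 lower at 48 than at 24 HAF, with overlap. By group mean it ran from drought 72 HAF (3.92 ± 0.43) through control 72 HAF, control 24 HAF and drought 48 HAF (3.46 ± 0.15) to control 48 HAF (3.44 ± 0.25), and each group overlapped with the next.

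**Figure D2:**
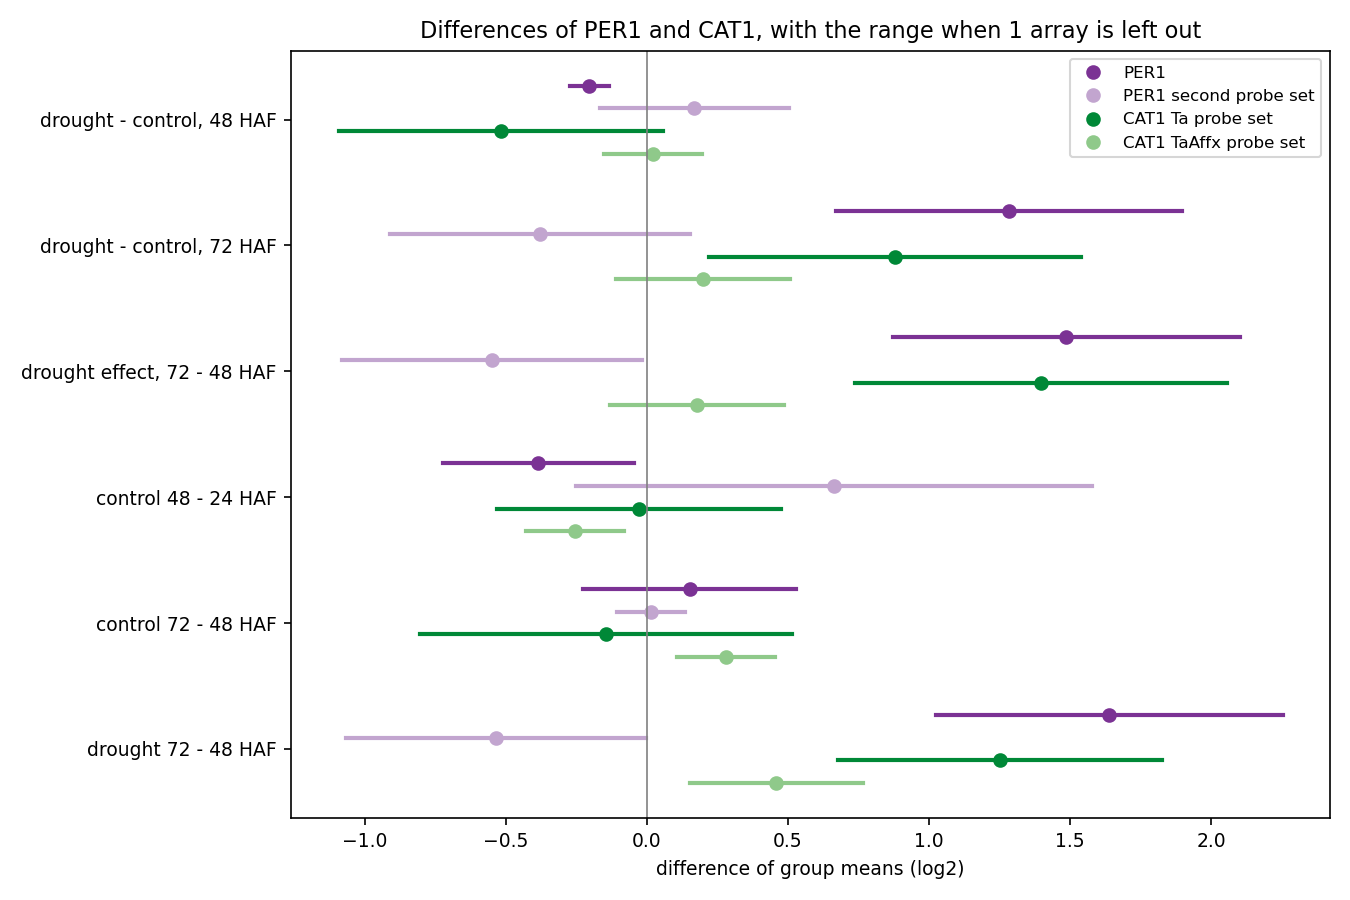
Difference of group means (log2) of each member probe set in the 6 comparisons (points), with lines spanning the values obtained when 1 array of the comparison is left out. For drought minus control at 72 HAF, the lines of the second PER1 probe set and the dimmer CAT1 probe set cross 0. Those of the first PER1 probe set and the brighter CAT1 probe set lie above 0. There the arrays did not overlap, so leaving out 1 array cannot change the sign.

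The members' separations were read against all tested probe sets. For drought above control at 72 HAF, 2 of 4 member probe sets had arrays that did not overlap, as had 13.0% of the 61179 tested; 0 lay below, against 8.37% of all. At 48 HAF, 1 of 4 lay below and 0 above, against 15.4% and 15.9% of all. For drought at 72 over 48 HAF, 3 of 4 lay above and 0 below, against 23.3% and 21.2% of all. In watered seeds 1 of 4 lay above and 0 below at 72 over 48 HAF, against 15.7% and 17.3%, and 0 of 4 in either direction at 48 over 24 HAF, against 9.86% above and 15.0% below. Drought arrays all below control at 48 HAF and all above at 72 HAF, as in PER1's first probe set, occurred in 2.87% of tested probe sets. These shares stand beside the members as a description, since the members were chosen on these arrays.

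In the limma fit across all probe sets, 0% of the 61179 were called at an adjusted p of 0.05 in any of the 6 comparisons. An unadjusted p under 0.05 was reached by 82 probe sets for drought against control at 48 HAF, 252 at 72 HAF and 227 for the difference of these effects. The numbers were 907 for control 48 against 24 HAF, 187 for control 72 against 48 HAF and 2470 for drought 72 against 48 HAF. Each count is below a share of 0.05 of the 61179 probe sets. That share is to be had on average with no difference between groups, if the assumptions of the fit hold. Whether they hold on these arrays was not tested. The counts are therefore no sign of changed probe sets, and they do not show that none changed.

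The first PER1 probe set was high on the arrays that carried storage transcripts. Its 4 highest values (6.59, 5.36, 5.26 and 5.07) fell on the 4 arrays with the highest summed storage level, and the other 6 arrays read 4.31 to 4.61. The same held for 3.02% of all tested probe sets, and for 12 of the 14 storage genes that defined the sum. Within these 4 arrays the drought 72 HAF values were 5.36 and 6.59, against 5.07 in control 72 HAF replicate 2 and 5.26 in control 24 HAF replicate 2. The part of the storage signal in the PER1 difference was not tested.

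The brighter CAT1 probe set was set beside the ribosomal RNA control. Its 5 highest values (7.50, 7.14, 7.10, 7.08 and 6.99) fell on the 5 arrays with the highest 18S ribosomal RNA control signal (11.01 to 11.6 on the log2 scale). Its lowest values, 5.49 on drought 48 HAF replicate 2 and 5.78 on control 72 HAF replicate 1, fell on the arrays with the lowest 18S signal, 6.12 and 8.02. On the remaining 3 arrays CAT1 read 6.08 to 6.64 and 18S 9.77 to 9.99. Being highest on those same 5 arrays occurred in 1.54% of tested probe sets. By group, 18S read 11.5 and 11.01 in drought 72 HAF and 8.02 and 11.3 in control 72 HAF, and 9.99 and 6.12 in drought 48 HAF and 9.94 and 11.6 in control 48 HAF. The part of this signal in the CAT1 differences was not tested. The storage-rich arrays were 4 of these 5 arrays, so PER1 and CAT1 were each high on arrays rich in both signals. The remaining one, control 48 HAF replicate 2, had an 18S signal of 11.6 and a storage sum of 1379, and read 4.47 for PER1 and 7.08 for CAT1.

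**Figure D3:**
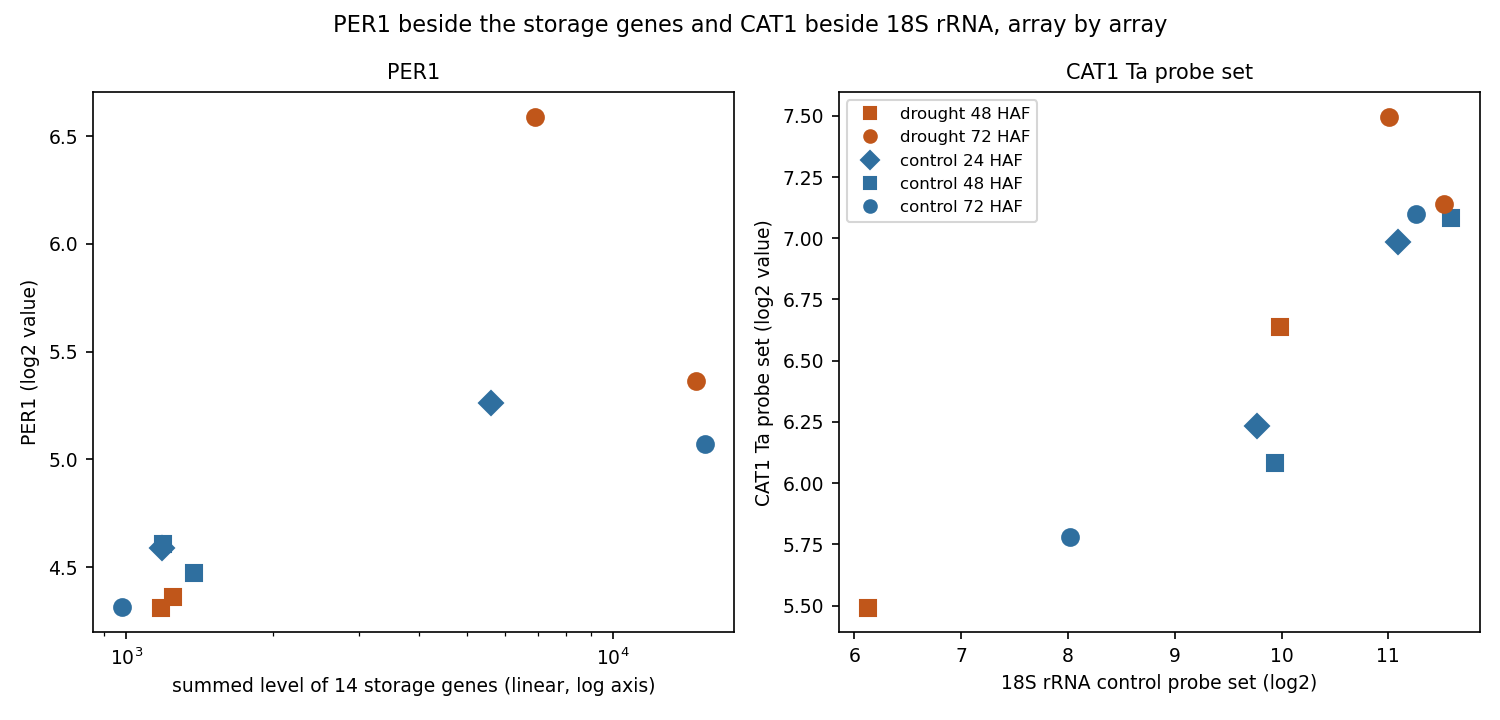
Left, log2 value of the first PER1 probe set against the summed linear level of 14 storage genes (log axis); right, the brighter CAT1 probe set against the 18S rRNA control (log2), 1 point per array, drought orange and control blue, shape by time. The 4 storage-rich arrays hold the 4 highest PER1 values, and the 5 arrays at 11.01 or more in 18S hold the 5 highest CAT1 values.

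Of the wider antioxidant list, 3 other genes could be named on the array: Prx1 (LOC606328), a peroxidase, GSTZ1 (LOC543412), a zeta-class glutathione transferase, and Trx-M (LOC542973), an m-type thioredoxin, a small redox protein of plastids. None of the 3 passed in any of the 6 comparisons by limma (0 of 3 called, beside 0% of all probe sets). An unadjusted limma p under 0.05 was reached by 0 of 3 in each, beside 82 to 2470 of the 61179 probe sets. The median difference of the 3 genes between drought and control was -0.057 at 48 HAF and -0.058 at 72 HAF. The medians over all probe sets were 0.0022 and 0.029. The median of the difference between these drought effects was -0.00096, beside 0.029 over all probe sets. It was 0.61 for control 48 against 24 HAF (all probe sets -0.078), -0.15 for control 72 against 48 HAF (0.0015) and -0.40 for drought 72 against 48 HAF (0.056).

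Trx-M was the one nearest to CAT1. At 72 HAF it read 9.54 and 9.95 in drought seeds, against 8.87 and 9.45 in control seeds. The arrays did not overlap, and the difference was 0.59 ± 0.47 (SE; limma adjusted p = 1). At 48 HAF it read 9.28 and 8.62 in drought seeds, against 8.93 and 9.69 in control seeds, a difference of -0.36 with overlapping arrays (limma adjusted p = 1). Like CAT1, it was highest on the 5 arrays with the most 18S signal. In drought seeds it was higher at 72 than at 48 HAF by 0.80 ± 0.47 without overlap (limma adjusted p = 0.953).

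Prx1 read 10.2 and 9.36 in drought seeds at 72 HAF, against 9.87 and 10.3 in control seeds, a difference of -0.31 ± 0.47 (SE; limma adjusted p = 1). At 48 HAF it read 10.5 and 9.84 in drought seeds, against 9.74 and 10.4 in control seeds, a difference of 0.095. The arrays overlapped at both times. GSTZ1 read 7.16 and 6.47 in drought seeds at 72 HAF, against 6.51 and 7.24 in control seeds, and its difference was -0.058 at 72 HAF and -0.057 at 48 HAF, with overlap at both times. Its only separation by this probe set was between control 48 and 24 HAF (7.30 and 7.23 against 7.04 and 5.96; difference 0.77, limma adjusted p = 0.621). The 5 dimmer probe sets of these genes did not all follow the brightest. At 72 HAF 2 of 3 dimmer Prx1 probe sets were higher in drought than in control seeds without overlap, by 0.39 and 0.35, where the brightest gave -0.31. The same separation occurred in 13.0% of all tested probe sets. The probe set with 0.35 read 4.21 and 4.24 in control seeds, near the array medians. The dimmer GSTZ1 probe sets differed by 0.47 and -0.62 at 72 HAF, with overlap, and by -0.49 and 0.35 at 48 HAF, without overlap. Of all tested probe sets, 15.4% lay below and 15.9% above without overlap at 48 HAF.

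**Figure D4:**
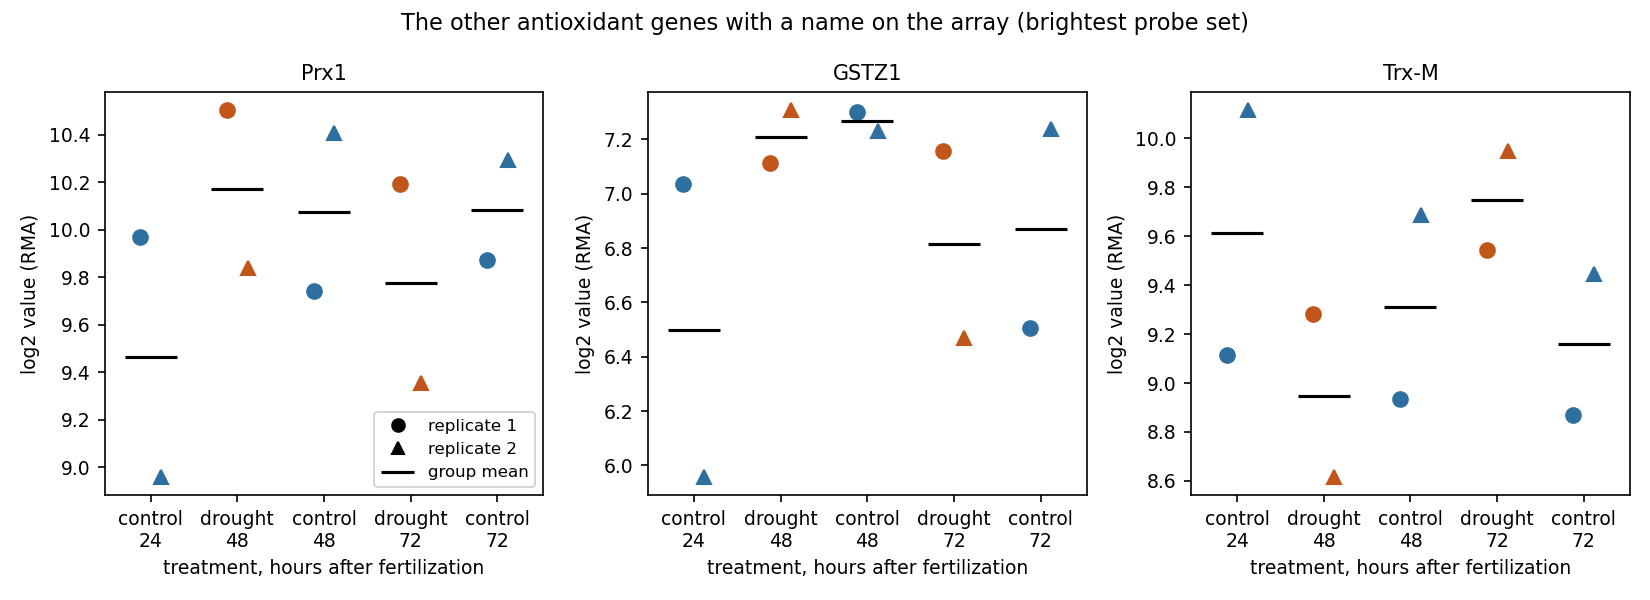
Log2 value of the brightest probe set of Prx1, GSTZ1 and Trx-M on each array (circles replicate 1, triangles replicate 2, lines group means, n = 2 per group), drought orange and control blue. Trx-M at 72 HAF reads 9.54 and 9.95 in drought and 8.87 and 9.45 in control seeds.

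Of 3 further redox-related genes, chosen after the gene names had been read, HGGT, an enzyme of tocotrienol synthesis, differed between drought and control by 0.51 ± 0.90 (SE) at 72 HAF. PCS1, phytochelatin synthase, which uses glutathione, differed by -0.71 ± 0.92, and lgul, a lactoylglutathione lyase, by -0.58 ± 0.53. All of them overlapped between drought and control arrays at that time (limma adjusted p = 1 for each). At 48 HAF PCS1 was higher in drought than in control arrays without overlap, by 0.44 ± 0.92 (limma adjusted p = 1). In drought seeds PCS1 and lgul were lower at 72 than at 48 HAF without overlap, the opposite sign to PER1's first probe set and CAT1. Their differences were -1.36 ± 0.92 and -0.84 ± 0.53 (limma adjusted p = 0.953 for both), with a gap of 0.037 for lgul. HGGT had the same sign as PER1's first probe set and CAT1, with a difference of 1.21 ± 0.90 and overlapping arrays. The dimmer lgul probe set differed by -0.175 there and by -0.081 between drought and control at 72 HAF, both with overlap.

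The genes with profiles most like the members were ranked among 770 genes by the root mean square difference between mean-centred log2 profiles over the 10 arrays. For the first PER1 probe set, whose own profile had a root mean square of 0.68, they were LOC543470 (0.214), LOC606316, the serpin gene LOC100037548 (WSZ1b, a protease inhibitor of the grain), LOC543167 and LOC100049026 (0.338). Of these 5, 4 were highest on the storage-rich arrays and 2 on the arrays with the most 18S signal. Each gene entered by its closest probe set, and that of LOC100037548 averaged 2.51 on the log2 scale, under the array medians. For the brighter CAT1 probe set (0.64) they were Trx-M (0.288), LOC543200, LOC543167, LOC606316 and the phosphoglycerate kinase gene LOC543496 (Pgk-1, 0.336), of which 4 were highest on the storage-rich arrays and 5 on the arrays with the most 18S signal. LOC606316 and LOC543167 stood in both lists. Over all tested probe sets, 3.02% were highest on the storage-rich arrays and 1.54% on the 18S-rich arrays. The listed genes were picked for likeness to probe sets that themselves rank highest on those arrays. Their counts therefore follow largely from the choice and give no separate evidence of a link to either signal.

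For the second PER1 probe set (0.58) the 5 closest genes were LOC543044 (0.115), LOC542978, LOC543239, LOC542831 and LOC780635 (0.156), none of them in the list of the first probe set. For the dimmer CAT1 probe set, whose own root mean square was 0.25, they were LOC100037555 (0.102), LOC542993, LOC542844, LOC780636 and LOC780623 (0.149). Without control 24 HAF replicate 2, the closest 5 shared 3, 5, 4 and 3 genes with these lists, in the order first and second PER1, brighter and dimmer CAT1 probe set.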

How the data were processed

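Each sample was labelled with the one-cycle cDNA kit, per the labels' protocols, and measured on its own array. The authors deposited log2 expression values. Their processing notes list the tools affy and RMA; for both, the version is not given in the sources used. Values entered without rescaling. The fit covered 61179 of 61290 probe sets, since 111 array controls were dropped. Members and lists were chosen with earlier results of these data known, and marker lists were extended after gene names were read. Differences are between group means. The background fit was made in limma 3.58.1 (R 4.3.3) on all 10 arrays, with an intensity trend, 5 residual degrees of freedom and Benjamini-Hochberg adjustment. It was also run on simulated data with independent noise and no arrays that stand apart. That run cannot show how the fit performs on these arrays. In the antioxidant, redox-related and marker lists a gene was represented by its brightest probe set. In the likeness ranking it was represented by its closest probe set. Named were the members, all genes of the antioxidant list, and the 5 genes most like each member probe set; the redox-related genes were added. Alternatives were array centring, quantile normalization, array weights, a replicate block, no trend, a filter on dim probe sets, averaged probe sets and leaving out arrays. The number of arrays, 2 per group, limits the precision. Sequences and genome positions were not used here.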

Additional observations from a re-analysis of the deposited data

Results flagged for a closer look

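The first PER1 probe set differed from control in opposite directions at the 2 sampling times: both drought arrays lay below both controls at 48 HAF and above them at 72 HAF. The same held for 2.87% of all tested probe sets. At 48 HAF the difference was only -0.20, between values close to the array medians without a detection call. Averaged over both PER1 probe sets it was -0.018. The drought effect at 72 HAF minus that at 48 HAF was 1.49 on the log2 scale. Since the members were chosen on these arrays, this difference was not tested. The second PER1 probe set gave -0.55 for the same quantity.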

How the results depend on the processing

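The deposited values already carry the authors' normalization, signal over background is not given, and 2 arrays a group let 1 array decide many values. Leaving out 1 array at a time, 98 of 112 member differences kept their sign, as did 74 of 84 under centring, quantile normalization, averaged probe sets and the removal of both arrays that stand apart. Under that removal, drought against control at 48 HAF and control 72 against 48 HAF could not change, since neither array is in them. Their signs are counted among the 74. Leaving out 1 array cannot change the sign where the arrays of the 2 groups compared did not overlap. Those cases are counted among the 98. Averaging both PER1 probe sets, chosen after seeing the data, gave PER1 differences of -0.018 for drought against control at 48 HAF, 0.45 at 72 HAF, 0.47 for the difference of these effects, 0.14 for control 48 against 24 HAF and 0.55 for drought 72 against 48 HAF. Without both arrays that stand apart, also chosen later, the difference of drought effects was 0.87 for PER1, -0.017 for its second probe set and -0.13 for the dimmer CAT1 probe set. Control 24 HAF does not enter this difference, so these are the values without drought 72 HAF replicate 2 alone. Leaving out 1 array at a time, the difference of drought effects ranged from 0.87 to 2.10 for PER1 and from -1.08 to -0.017 for the second probe set. It ranged from 0.74 to 2.06 for the brighter CAT1 probe set and from -0.13 to 0.49 for the dimmer one. Probe sets called by limma ranged from 0 to 25621 for control 48 against 24 HAF, with 25621 without control 24 HAF replicate 1, which leaves the array that stands apart as its group's only one. They ranged from 0 to 2 for drought against control at 48 HAF and for control 72 against 48 HAF, with 2 without control 48 HAF replicate 2. For the 3 other antioxidant genes, calls changed only for control 48 against 24 HAF without control 24 HAF replicate 1. In that setting calls rose over all probe sets as well, so the change is not read as a result about these genes. A lone array is assumed to vary like the other groups. Same-numbered arrays of different groups deviated together with correlations of -0.519 to 0.586 over 10 pairs of groups, so the numbers were not taken as pairs. With 2 arrays in every group, a replicate block or array weights cannot change a difference of means: all 48 such values equalled the reported ones (1.28 for PER1 at 72 HAF with the replicate block), which says nothing about stability. The cause of these changes was not tested.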
